A study of Cicer arietinum with 8 samples.

Results

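Desiccated chickpea shoot was set directly against cold-treated shoot, with 1 mRNA library on each side and without use of the control in the difference itself. The comparison covered the annotated gene models that reached at least 1 FPKM (fragments scaled by exon length and by the mapped fragments of the library) in either library. These were 16043 of the 27248 annotated gene models in the deposited files. The other 11205 were under 1 FPKM in both libraries. Unannotated loci, which carry only a locus number, were left out.

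All plants were 10-day-old seedlings of the chickpea (Cicer arietinum) genotype ICC4958, grown in a culture room and treated for 5 h. For desiccation the seedlings were laid on folded tissue paper, and for cold they were kept in water at 4 ± 1 °C. Further libraries came from seedlings left in water as controls and from seedlings in 150 mM NaCl, so that shoot and root each have 4 libraries, 8 in all. No condition was replicated, and the labels do not say how many seedlings went into a library or whether shoot and root came from the same plants.

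Both treatments disturb the water relations of a shoot, by different routes. Drying withdraws water from the cells, and plants answer it largely through the hormone abscisic acid, with closure of stomata and the accumulation of protective proteins and solutes. Chilling stiffens membranes and slows enzymes, and it acts in good part through transcription factors of the CBF/DREB family. Salt adds an osmotic stress that resembles drying to an ionic stress of its own. The files give gene models by ID only, and 0 of these IDs matched the RefSeq gene table, so gene names and functions are not used here, and the organ and treatment could not be checked against marker genes.

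Desiccated and cold shoot differed widely. At a 2-fold difference on the log2(FPKM + 1) scale, 1342 gene models (8.37%) were higher in desiccated shoot and 1578 (9.84%) were higher in cold shoot, 18.2% in all. The difference, given throughout as desiccation minus cold, had a median of -0.02 (log2) over the 16043 gene models, with quartiles of -0.50 and 0.44. At least 4-fold apart were 241 gene models higher in desiccated shoot and 246 higher in cold shoot. At 16-fold these numbers were 12 and 10. The larger number of gene models higher in cold shoot thus lay among the smaller differences. Each of these numbers compares a pair of libraries, with no replicate check and no p-value.

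**Figure D1:**
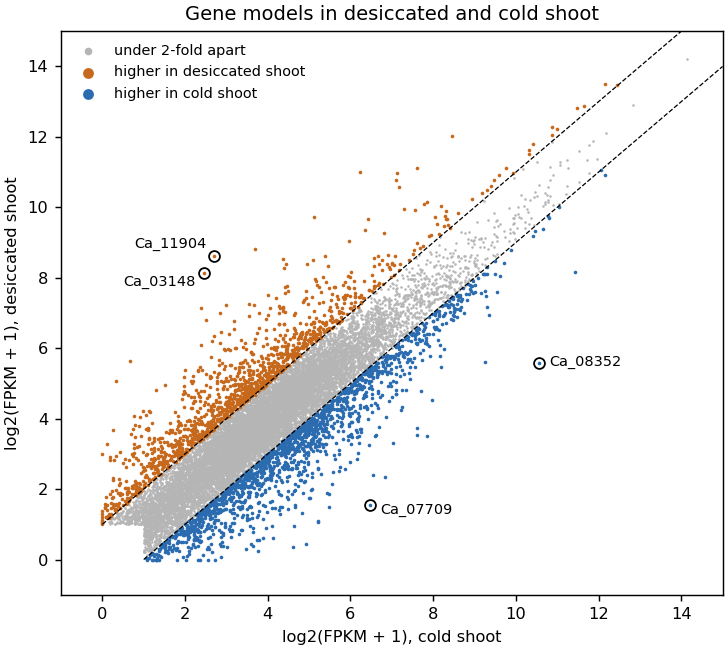
Level of each of the 16043 gene models in cold shoot (x axis) and desiccated shoot (y axis), both as log2(FPKM + 1), with 1 point per gene model and dashed lines at a 2-fold difference. The 1342 orange points are higher in desiccated shoot and the 1578 blue points higher in cold shoot, and the 4 circled gene models have the largest differences each way.

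The gene models farthest apart had high levels in one shoot and low or moderate ones in the other. Ca_11904 stood at 390 FPKM in desiccated shoot and 5.54 FPKM in cold shoot, a log2 difference of 5.90. In the other shoot libraries it was at 4.95 FPKM in the control and 45.3 FPKM under salinity. The cold level of Ca_11904 was thus close to that of the control, and salinity lay far above both.

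Ca_03148 stood at 280 FPKM in desiccated shoot and 4.52 FPKM in cold shoot, a log2 difference of 5.67. Its shoot level was 1.21 FPKM in the control and 29.5 FPKM under salinity. In root it was listed at 0 in the control, under desiccation and under cold, and stood at 0.153 FPKM under salinity, so its high level was seen in shoot libraries.

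In the other direction, Ca_08352 stood at 47.02 FPKM in desiccated shoot and 1505 FPKM in cold shoot, a log2 difference of -4.97. The shoot control held 1017 FPKM of it and salt-stressed shoot 459 FPKM. Of the shoot libraries, the desiccated one was the closest to the root libraries, which ran from 40.1 FPKM (salinity) to 146 FPKM (desiccation).

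Ca_07709 stood at 1.94 FPKM in desiccated shoot and 87.9 FPKM in cold shoot, a log2 difference of -4.92. The control (19.04 FPKM) and salt-stressed shoot (18.3 FPKM) lay well inside that span. Cold shoot and desiccated shoot were therefore on opposite sides of the control for this gene model, unlike for Ca_11904 and Ca_03148.

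The 12 leading gene models on each side repeated this contrast. Of the 12 highest in desiccated against cold shoot, 11 had the order control, cold, salinity, desiccation from lowest to highest. Their levels had a median of 1.66 FPKM in the control, 5.87 FPKM in cold, 39.3 FPKM in salinity and 215 FPKM in desiccation. Of the 12 highest in cold against desiccated shoot, 11 had the order desiccation, salinity, control, cold. Their medians were 3.01 FPKM in desiccation, 16.7 FPKM in salinity, 22.03 FPKM in the control and 90.5 FPKM in cold. The first group was thus low in the control and rather low in cold, whereas in the second the control sat in the middle. Choosing gene models by the size of the difference favours those with other libraries in between, so the order is a description of these 24 and not a test.

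**Figure D2:**
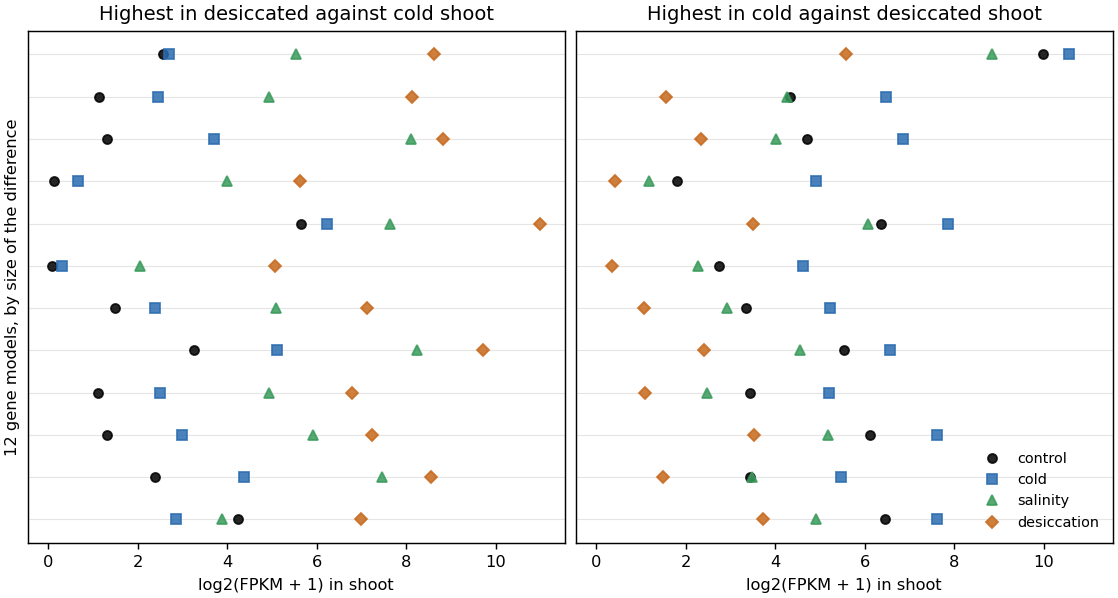
Level in the 4 shoot libraries, as log2(FPKM + 1) on the x axis, of the 12 gene models with the largest difference each way, 1 gene model per line, ordered from the largest difference at the top. In the left panel the control and cold symbols lie at the low end in 11 of 12 lines, and in the right panel the control lies between desiccation and cold in all 12.

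The whole lists showed where the control and salt-stressed shoot stood between the compared libraries. Gene models higher in desiccated shoot had a median of 8.07 FPKM in the control, 8.30 FPKM in cold, 16.2 FPKM in salinity and 26.6 FPKM in desiccation. Gene models higher in cold shoot had a median of 20.1 FPKM in the control, 23.4 FPKM in cold, 13.6 FPKM in salinity and 7.21 FPKM in desiccation. The control was nearer to cold than to desiccation for 1265 of the 1342 (94.3%) and for 1366 of the 1578 (86.6%), against 75.2% of all 16043. Salt-stressed shoot was nearer to cold for 44.2% and 42.0%, against 44.7% of all.

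On the way from the cold level to the desiccation level, the control stood at a median of -2.61% for gene models higher in desiccated shoot and at 5.198% for those higher in cold shoot. Salt-stressed shoot stood at 54.3% and 55.8%, about midway in both lists. It lay inside the span for 1154 of 1342 and for 1357 of 1578 gene models, which is 86.0% of each, against 53.5% of all 16043. It went beyond desiccation for 107 and 98 of them and beyond cold for 78 and 120. Gene models chosen for a wide span more often have a further library inside it.

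Against the shoot control, which both of the following comparisons share, the 2 stresses differed in size. Of the 1342 gene models higher in desiccated shoot, 1051 (78.3%) were at least 2-fold above the control under desiccation, where 9.22% of 16040 gene models were so in that comparison. Cold shoot was at least 2-fold below the control for 27 of them and at least 2-fold above it for 72, with backgrounds of 0.447% and 2.25% of 15892. Of the 1578 gene models higher in cold shoot, 1138 (72.1%) were at least 2-fold below the control under desiccation, against a background of 10%, and 163 (10.3%) were at least 2-fold above it under cold. The median change against the control was 1.44 (log2) under desiccation and 0.04 under cold in the first list, and -1.28 and 0.07 in the second. The lists were chosen on these same 2 libraries, which raises the shares and medians against the control, so they are given as a description.

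Salt-stressed shoot had no part in choosing the gene models, although each distance from it uses 1 of the compared libraries. It was at least 2-fold above cold for 455 of the 1342 gene models (33.9%), against 4.54% of 16029, and at least 2-fold below desiccation for 370 (27.6%), against 2.94% of 15927. Of the 1578 it was at least 2-fold below cold for 497 (31.5%), against 3.84%, and at least 2-fold above desiccation for 402 (25.5%), against 4.14%. The choice of gene models that lie apart in these libraries raises each of these shares.

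**Figure D3:**
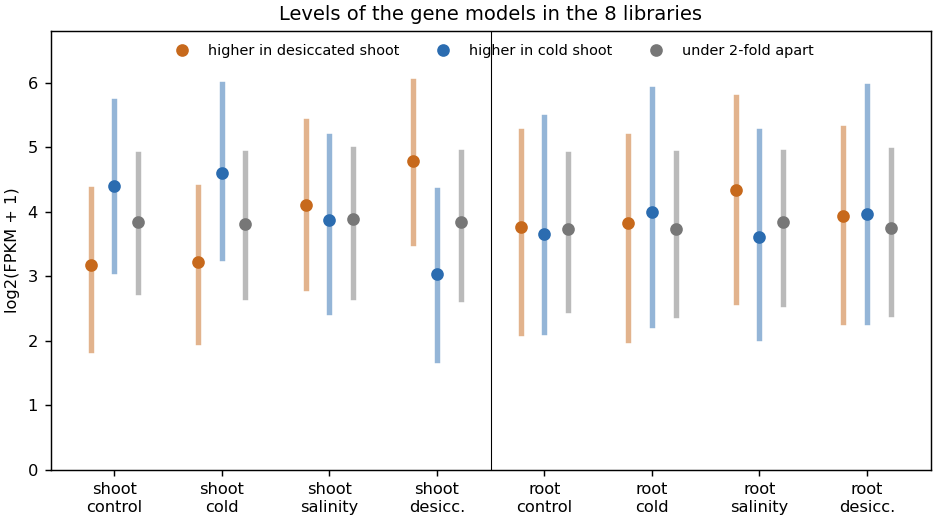
Median (point) and quartiles (bar) of log2(FPKM + 1) in each of the 8 libraries for the 1342 gene models higher in desiccated shoot, the 1578 higher in cold shoot and the 13123 under 2-fold apart. In shoot the orange and blue points change places from control and cold to desiccation, with salinity in between, and in root they lie farthest apart under salinity.

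Abundant gene models were apart more often than those of middle level. Among the 1094 whose mean over the compared libraries reached 100 FPKM, 13.6% were higher in desiccated shoot and 17.0% in cold shoot, against 7.45% and 8.39% of the 3611 with 10 to 20 FPKM. Of 76 whose mean reached 1000 FPKM, 20 were higher in desiccated shoot and 8 in cold shoot. Over all 16043 gene models the shares were 8.37% and 9.84%, so the number higher in cold shoot was near its share. These 76 were not counted again under quantile normalization. The 1342 gene models higher in desiccated shoot held 24.2% of the gene-model FPKM there, 12.6% in salinity, 8.27% in cold and 8.05% in the control. The 1578 higher in cold shoot held 6.17% in desiccation, 10.8% in salinity, 17.0% in cold and 16.1% in the control.

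The most abundant members of the lists differed in their root levels. The 5 most abundant gene models higher in desiccated shoot ran from 4821 to 11630 FPKM there and from 2036 to 5623 FPKM in cold shoot, with log2 differences of 1.00 to 1.34. With quantile normalization over the shoot libraries all 5 fell under 2-fold, at 0 to 0.94. They were also abundant in the root control, at 3899 to 9166 FPKM. The 5 most abundant higher in cold shoot ran from 1797 to 4526 FPKM in cold and from 289 to 2115 FPKM in desiccation, and in the root control they did not exceed 178 FPKM. In root the first 5 were also higher under desiccation than under cold, by 0.49 to 0.78 (log2), short of 2-fold.

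Few gene models were under 1 FPKM in one shoot and high in the other. Of those higher in desiccated shoot, 147 were under 1 FPKM in cold shoot, and 12 of these reached 10 FPKM under desiccation. Of those higher in cold shoot, 207 were under 1 FPKM in desiccated shoot, and 16 of these reached 10 FPKM under cold. In cold shoot 8 of the first list were listed at 0, and in desiccated shoot 13 of the second. A listed 0 can be a failed estimate, so no fold is given against it. At the limit of the comparison, the gene models just inside it had 1.001 and 1.003 FPKM as their higher value and those just outside had 0.9996 and 0.9992 FPKM.

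Desiccated root against cold root is the same contrast in the other organ and shares no library with the shoot comparison. Root showed far fewer differences. Of 15863 gene models that reached 1 FPKM in either root library, 500 (3.15%) were at least 2-fold apart, 305 (1.92%) higher under desiccation and 195 (1.23%) higher under cold. In shoot the share was 18.2%.

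Of the 1342 gene models higher in desiccated shoot, 74 (5.51%) were also at least 2-fold higher in desiccated than in cold root, where 1.3% of the 16043 gene models were. They made up 24.3% of the root list. Of the 1578 higher in cold shoot, 51 (3.23%) were also higher in cold root, where 1.13% of the 16043 were, and they made up 26.2% of the root list. Opposite calls numbered 10 (0.745%, background 1.13%) and 19 (1.20%, background 1.3%), no larger a share than over all gene models. With a pseudocount of 0.1 the opposite calls rose from 29 to 92. Across the 14876 gene models that reached 1 FPKM in both pairs, Pearson's r between the shoot and the root difference was 0.06 and Spearman's rho was -0.04. Genes of 1 library are not independent points, so these describe the pairs of libraries only. Most gene models of the shoot lists were under 2-fold apart in root. The median root difference was 0.07 (log2) for the list higher in desiccated shoot and 0.06 for the list higher in cold shoot, against 0.04 over all 16043.

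**Figure D4:**
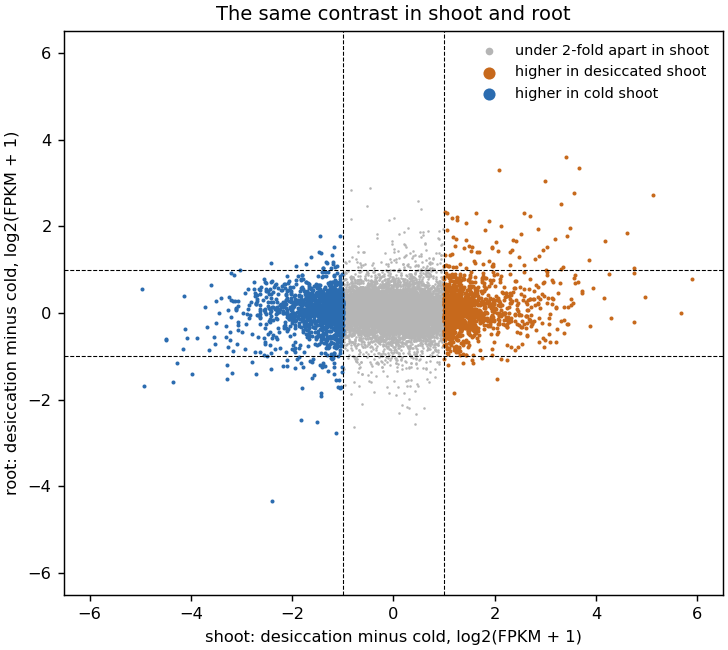
Difference of desiccation minus cold on the log2(FPKM + 1) scale in shoot (x axis) and in root (y axis), 1 point per gene model of the shoot comparison, with dashed lines at 2-fold. The cloud is wide in shoot and narrow in root, and 74 orange and 51 blue points pass the 2-fold line in root in the same direction.

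Some leading gene models of the shoot contrast did repeat in root. At least 2-fold apart the same way in root were 4 of the 12 leading ones on each side. Over all 16043 gene models 1.3% were so towards desiccation and 1.13% towards cold. Ca_13297 stood at 451 FPKM in desiccated and 11.95 FPKM in cold shoot, a log2 difference of 5.13, and at 244 and 36.1 FPKM in root, a difference of 2.72. Ca_19899 stood at 139 and 4.198 FPKM in shoot and at 31.4 and 14.9 FPKM in root, differences of 4.75 and 1.03. Both were at their lowest in the control of each organ, at 1.48 and 1.82 FPKM in shoot and 2.55 and 9.04 FPKM in root.

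Ca_20071 stood at 10.4 FPKM in desiccated and 230.2 FPKM in cold shoot, a log2 difference of -4.35, and at 290.4 and 878 FPKM in root, a difference of -1.59. Its control levels were 80.7 FPKM in shoot and 84.03 FPKM in root. Desiccated shoot thus lay below its control and desiccated root above, while cold was the highest library in both organs. Ca_07709 had the same direction in root, at 62.98 FPKM in desiccated root and 203 FPKM in cold root, a difference of -1.68.

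Gene models with opposite calls in the organs had smaller differences. Ca_08221 was higher in desiccated than in cold shoot, at 13.7 and 2.09 FPKM (log2 difference 2.25), and lower in desiccated than in cold root, at 6.03 and 13.8 FPKM (-1.08). Ca_06746 did the same, at 36.2 and 7.53 FPKM in shoot (2.12) and 23.1 and 49.6 FPKM in root (-1.07). Ca_11863 was at 1.85 FPKM in desiccated and 14.3 FPKM in cold shoot (-2.42), and at 54.7 and 23.99 FPKM in root (1.16). Ca_03902 was at 2.47 and 12.1 FPKM in shoot (-1.92) and at 4.19 and 1.45 FPKM in root (1.08). No gene model (0) was at least 4-fold apart in both organs in opposite directions.

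Salt-stressed root also shares no library with the shoot contrast, and the medians of the lists lay farther apart in it than in desiccated or cold root. Gene models higher in desiccated shoot had a median of 19.3 FPKM in salt-stressed root, against 12.6 FPKM in the root control, 14.3 FPKM under desiccation and 13.2 FPKM under cold. Those higher in cold shoot had their lowest root median under salinity, at 11.2 FPKM, against 11.6 FPKM in the control, 14.6 FPKM under desiccation and 14.95 FPKM under cold. Over all 16043 gene models the root medians were 12.3, 12.6, 13.6 and 12.5 FPKM in the control, desiccation, salinity and cold. Of these, 13% were at least 2-fold higher and 9.13% lower in salt-stressed than in cold root. For desiccated against cold root the shares were 1.3% and 1.13%, so salt-stressed root stood farther from cold root for gene models in general.

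Of the 1342 gene models higher in desiccated shoot, 383 (28.5%) were at least 2-fold higher in salt-stressed than in cold root and 84 (6.26%) were at least 2-fold lower, with backgrounds of 13% and 9.13% of the 16043. Of the 1578 higher in cold shoot, 145 (9.19%) were higher and 377 (23.9%) lower. Set against desiccated root, salt-stressed root was at least 2-fold higher for 327 (24.4%) and lower for 91 (6.78%) of the first list, with backgrounds of 12% and 11.3%, and higher for 150 (9.51%) and lower for 418 (26.5%) of the second. These root pairs share the salt-stressed library. The median difference of salinity minus cold in root was 0.35 (log2) for the first list, -0.33 for the second and -0.02 over all. Salinity was the highest of the 4 root libraries for 46.8% of the first list and 20.03% of the second, against 34.0% of all 16043, and for 8 of the 12 leading gene models of the first. Cold was the highest for 14.9% and 21.4%, against 18.4% of all, and for 8 of the 12 leading gene models of the second.

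**Figure D5:**
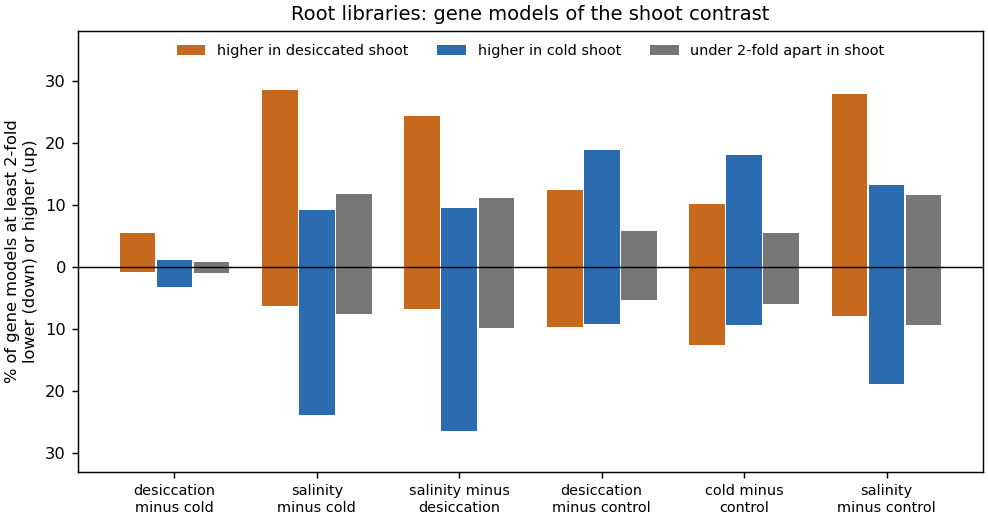
Share of gene models at least 2-fold higher (bars up) or lower (bars down) in 6 pairs of root libraries, for the 1342 gene models higher in desiccated shoot, the 1578 higher in cold shoot and the 13123 under 2-fold apart in shoot. In the pairs with salinity the orange bars reach farther up than down and the blue bars farther down than up. Set against cold root, 28.5% of the first list were higher and 23.9% of the second lower under salinity.

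The organ of the higher level depended on which libraries stood for root and shoot. Between the controls, 36.6% of the gene models higher in desiccated shoot were at least 2-fold higher in root (background 16.1%) and 12.8% in shoot (background 20.1%). Those higher in cold shoot were the reverse, with 14.4% higher in root and 36.8% in shoot. When the root control was set against the mean of desiccated and cold shoot on the log scale, the first list had 18.6% higher in root and 27.9% in shoot, and the second 18.4% and 23.6%, against 13.5% and 18.3% of all 16043, so that both lists were above both shares. Between the salt-stressed organs the first list had 27.5% higher in root and 21.7% in shoot, and the second 19.9% and 28.1%, with backgrounds of 16.6% and 19.1%. The root control medians, 12.6 and 11.6 FPKM, were close, and the shoot control lay near cold shoot in both lists.

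A fit over all 8 libraries asked which gene models differed between desiccation and cold by a like amount in both organs. The additive model of organ and treatment has 3 residual degrees of freedom, so differences between the organs count as error. With limma 0 of the 16477 gene models whose mean reached 1 FPKM passed an adjusted p of 0.05, and 269 (1.63%) had an unadjusted p under 0.05. The lowest adjusted p was 0.099, for Ca_06911, with a mean log2 difference of 3.51 (SE 0.279). Ca_13297 had a mean difference of 3.93 (SE 0.639, limma adjusted p = 1) and Ca_07709 one of -3.30 (SE 0.775, limma adjusted p = 1). The fit gives no p-value for shoot alone. In a simulation with changes planted in well-expressed gene models, it recovered 2% of 2-fold, 72% of 4-fold and 100% of 16-fold changes. The 0 calls therefore say little about shared differences near 2-fold. Ca_13297 and Ca_07709, with larger mean differences, were not called either. Whether the fit would recover shared 4-fold or 16-fold changes as often in the sequenced libraries was not tested.

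The 2 shoot libraries were of like depth. At 934 loci under 0.3 FPKM in both, the most frequent ratio of single-fragment steps put desiccated shoot at 0.96 of the depth of cold shoot. Gene models summed to 710943 FPKM in desiccated and 705953 FPKM in cold shoot, 21.3% and 25.9% of all FPKM. The rest lay in unannotated loci, 1 of which held 14.54% of all FPKM in desiccated shoot and 8.92% in cold shoot, and its part in the differences was not tested. The median ratio of desiccated to cold shoot over gene models expressed in both was 0.99. Among the 2920 gene models 2-fold apart, 68 stood on loci with several IDs and 46 had an ID on more than 1 locus, where fragments could be split or merged. Loci with several IDs made up 2.61% of the list higher in desiccated shoot and 2.09% of the other, against 2.74% of all 16043. For IDs on more than 1 locus the shares were 1.49% and 1.65%, against 1.65% of all. In whole tissue, fewer cells of a type and less RNA per cell cannot be told apart.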

How the data were processed

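Messenger RNA of 10-day-old chickpea seedlings was sequenced in 8 libraries, grouped by sample title. The deposited FPKM values were made by the authors with NGS QC Toolkit (read filtering), TopHat (mapping to the annotated chickpea genome) and Cufflinks, per the series' design text. Tool versions, the annotation release and the genome build are not stated in the sources used here. FPKM carries no read totals, so only the relative depth of the libraries could be estimated, and no counting interval is given.

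From the FPKM, log2(FPKM + 1) was compared between desiccated and cold shoot for annotated gene models with at least 1 FPKM in either library, and a difference of at least 1 (2-fold) was counted. This scale understates changes of weakly expressed gene models. No p-value was computed for 1 library against 1. The additive fit used limma 3.58.1 (R 4.3.3, with a trend) and Benjamini-Hochberg adjustment over all gene models fitted. Its p-values measure only the spread between these libraries. The steps were tested on simulated data. Other work used Python 3.11.15, numpy 2.4.6, pandas 2.3.3 and matplotlib 3.10.9.

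The gene models, lists and rules were chosen with earlier results of these data known. The naming rule took the 12 largest differences each way, the largest among those at least 2-fold apart in root in the same or the opposite way, the most abundant, and those next to the 1 FPKM limit. Because the files do not pair IDs with names, at most 2 IDs each way are printed per comparison. The gene lists by function and the promoter motifs that had been planned need names, and were not used here. Alternatives changed the pseudocount, the minimum, the fold, the scaling and the loci included.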

Additional observations from a re-analysis of the deposited data

Results flagged for a closer look

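Some gene models at least 2-fold apart between desiccation and cold in both organs had opposite directions in root and shoot. Of these, 10 were higher under desiccation in shoot and under cold in root, and 19 were higher under cold in shoot and under desiccation in root. These are 0.745% and 1.20% of the shoot lists, where 1.13% and 1.3% of all 16043 gene models had those root differences, so the shares are not above the background. The difference between the organs was not tested, since each rests on 1 library per organ and treatment. Outside the annotated gene models, 1 unannotated locus stood at 486024 FPKM in desiccated shoot, against 155475 FPKM in the shoot control, 243544 FPKM in cold shoot and 258229 FPKM in salt-stressed shoot.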

How the results depend on the processing

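Rescaling by median ratios, quantile normalization, a minimum of 5 FPKM, no filter, and leaving out loci with shared or repeated IDs kept the shoot counts within 1.5 times, at 1204 to 1384 higher and 1358 to 1578 lower in desiccated shoot. With a pseudocount of 5 the counts were 755 and 842, and at 4-fold they were 241 and 246. A pseudocount of 0.1 gave 1694 and 2064. With unannotated loci included there were 2277 higher and 2156 lower, so the balance turned, from 46.0% to 51.4% higher among those called. Desiccated and cold root were apart at 875 gene models with a pseudocount of 0.1, 200 with a pseudocount of 5 and 45 at 4-fold. Those apart the same way in both organs numbered 125, and 205, 58 and 11 under these settings, and those apart in opposite ways 29, and 92, 7 and 0. A stricter fold or a larger pseudocount cannot count more, and a smaller pseudocount cannot count fewer. The cause of the other shifts was not tested. Of 176 values of 44 gene models chosen by the naming rule under 4 settings, 171 kept their direction at 2-fold or more, 4 kept it under 2-fold, 1 went to 0 and 0 reversed. All 44 had been chosen as at least 2-fold apart. A change of pseudocount cannot reverse a direction, and so slight a rescaling by the median ratio cannot reverse a 2-fold difference. Only quantile normalization could have reversed one. The 5 below 2-fold were the most abundant gene models higher in desiccated shoot, all under quantile normalization. The limma fit called 4 gene models without the filter on low values, with log2 differences of -0.12 to 0.18, and 0 under the other 3 alternatives. Setting salt-stressed organs, or the mean of desiccated and cold shoot, in place of the controls was chosen after seeing the data. No paired analysis was possible because each group has 1 library and so no replicate numbers to pair, although the limma fit compares treatments within organ. Without either library of the shoot pair there is no shoot comparison.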

Other observations

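Unannotated loci leaned towards desiccated shoot. Of 5408 with at least 1 FPKM in either shoot library, 935 were at least 2-fold higher in desiccated shoot and 578 at least 2-fold higher in cold shoot. Of the annotated gene models 8.37% and 9.84% were so, and the number higher in cold shoot was near that share. Other scalings were not tried on the unannotated loci. The locus with the highest level in desiccated shoot stood at 11851 FPKM in the root control, 6117 FPKM in desiccated root, 3652 FPKM in salt-stressed root and 4890 FPKM in cold root, so its order among treatments differed between the organs.

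Gene models seen in shoot only were somewhat more frequent among those that differed. Under 1 FPKM in all 4 root libraries were 93 of the 1342 gene models higher in desiccated shoot (6.93%) and 126 of the 1578 higher in cold shoot (7.98%), against 4.84% of all 16043.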
